A study of Mus musculus with 18 samples.

Results

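The cytosolic ribosomal proteins are the structural proteins of the cytoplasmic ribosome. They were taken as every protein-coding entry whose mouse symbol is Rpl or Rps followed by digits and an optional short suffix, together with Rplp0, Rplp1, Rplp2 and Rpsa. Pseudogenes, the Rps6k kinases and the mitochondrial ribosomal proteins were left out. This gave 84 genes of 32286 entries in the count table, 52 of the large (60S) subunit and 32 of the small (40S) subunit. Expression was measured by mRNA sequencing in 18 libraries of AT-3 and E0771, both mouse mammary carcinoma cell lines. Each line carried the inducible retroviral vector pRetroX in 3 forms: empty, holding wild-type MRTFA, or holding Y238A MRTFA, a point mutant given in the design text as SRF-binding deficient. Doxycycline was given to all groups, the empty-vector controls included, for 48 h at 2 µg/ml. There were 6 groups of 3 libraries. The labels speak of replicate sets without saying how the cultures were kept apart, so p-values measure the spread between these libraries, which may be partly technical.

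Each mature ribosome holds 1 copy of nearly every one of these proteins, so cells have to make the large and small subunit proteins in matched amounts. Their mRNAs are among the most abundant in growing cells and mostly start with a terminal oligopyrimidine (TOP) tract, through which mTOR complex 1 and LARP1 control their translation. MRTFA (myocardin-related transcription factor A) is a coactivator of SRF that moves into the nucleus when free actin monomers are depleted, and the ribosomal protein genes are not among its textbook targets. A few members have a closely related second gene copy, such as Rpl3l, which is known from striated muscle.

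The construct was read from an entry of its own named MRTFA, which lay at or under 0.115 CPM (counts scaled to a common library size) in all 6 empty-vector libraries. It lay between 4386 and 7082 CPM in AT-3 with wild type and between 1958 and 2326 CPM in AT-3 with Y238A. In E0771 the ranges were 707 to 866 CPM for wild type and 280 to 354 CPM for Y238A. Construct level therefore moved with both the line and the protein, and its part in any difference below was not tested. The library of AT-3 wild-type replicate 1 had the highest construct level and stood apart from its group (chi-square per degree of freedom of 40.1 and 51.8 to the other 2, which differed by 7.12), as did E0771 Y238A replicate 2 (57.3 and 68.4 to its other 2). Some libraries held a low level of transcripts typical of another group, whose origin was not tested. Over 235 genes typical of AT-3, the library of E0771 empty-vector replicate 2 reached a median of 1.38% of the level in AT-3. Over 32 genes of AT-3 wild type, AT-3 Y238A replicate 1 reached 1.27% of the level there. That library also had the highest construct level of the AT-3 Y238A group, 2326 CPM. Among 5 epithelial markers Epcam, Cdh1 and Krt18 were at most 2.82 CPM in every library, so these 3 were near absent from both lines. Of the other 2, Krt8 lay between 301 and 678 CPM in E0771 and reached 11.1 CPM in AT-3, and Krt19 had a median of 33.4 CPM in AT-3. Among mesenchymal markers Vim lay between 639 and 2935 CPM in AT-3 and between 3410 and 4321 CPM in E0771, and Cdh2 had a median of 292 CPM in AT-3 and 0.0897 CPM in E0771. Each of the 4 leukocyte and 2 adipocyte markers stayed at or under 1.04 CPM.

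Transcripts of the ribosomal proteins made up less of the library in AT-3 under either construct. They held 5.33%, 5.35% and 5.35% of all counts in the 3 empty-vector libraries, 3.89%, 3.91% and 3.93% in the Y238A libraries, and 2.75%, 3.08% and 3.18% in the wild-type libraries. The 3 groups did not overlap, and wild-type replicate 1, which stood apart in general, was the lowest of all. As means these were 5.34% ± 0.0143, 3.91% ± 0.0192 and 3.00% ± 0.226 (SD, n = 3), or 0.731 times the control share with Y238A and 0.562 times with wild type. In E0771 the share was 5.96% ± 0.142 with empty vector, 5.38% ± 0.0056 with wild type and 6.22% ± 0.316 with Y238A (SD, n = 3). The E0771 wild-type libraries all lay below the 6 others of that line, whereas Y238A and empty vector overlapped. The markers moved in AT-3 as well: with wild type Vim fell by 1.78 ± 0.0684 and the fibroblast marker Pdgfra fell by 2.47 ± 0.187 on the log2 scale, and Krt8 and Krt19 rose by 7.42 ± 0.249 and 3.11 ± 0.139 (edgeR, adjusted p = 7.09e-15, 3.36e-08, 2.32e-13 and 1e-13). The 3 other epithelial markers, Cdh2 and the 3 endothelial markers were not called. The only leukocyte and the only adipocyte marker tested were called higher, by 4.19 and 5.49, from levels near 0. Markers also moved in E0771 with wild type, where 11.2% of all genes rose and 13.3% fell. There 2 of the 5 epithelial markers were called higher and 1 of the 2 mesenchymal markers lower. Pdgfra was called lower in E0771 too, at -1.09, and the endothelial, leukocyte and adipocyte markers tested were not called. The part of all these markers in the change of the ribosomal proteins was not tested. In bulk RNA a lower share cannot be told apart from more RNA of other genes, and fewer cells of a kind cannot be told apart from less RNA per cell.

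**Figure D1:**
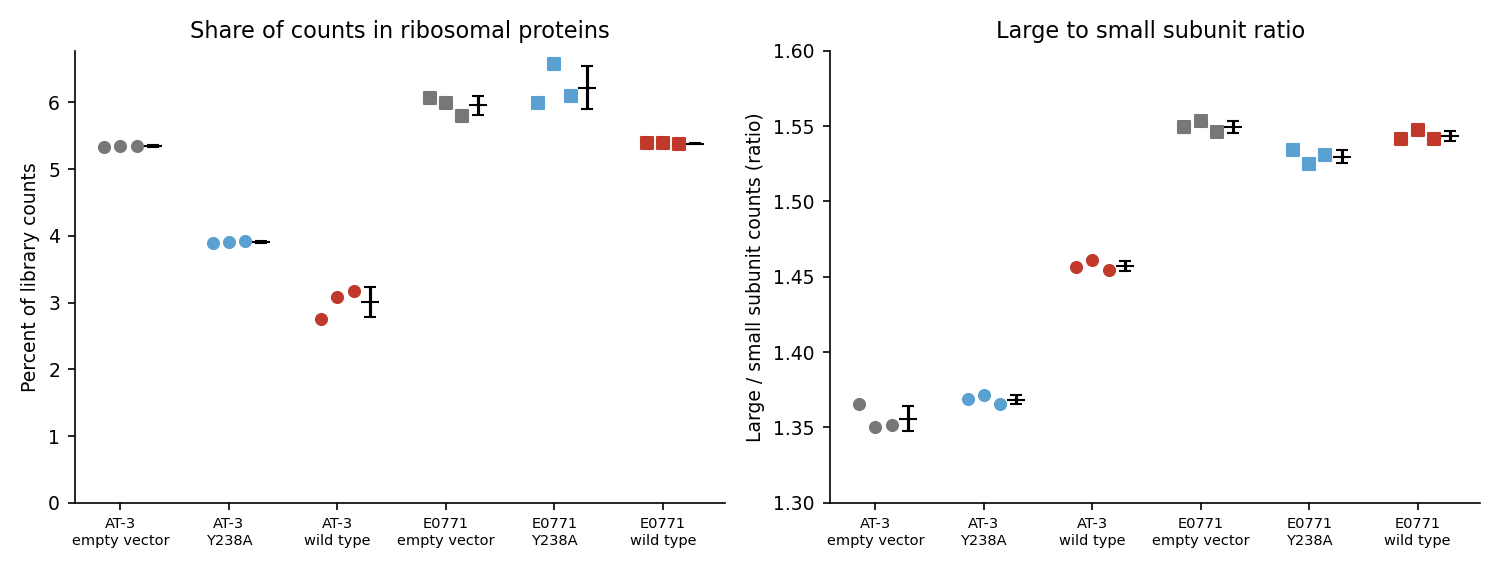
Left, the percent of each library's counts that fell in the 84 ribosomal protein genes, by group. Right, the ratio of summed large to summed small subunit counts, on an axis that does not start at 0. Points are the 3 libraries of a group and the bar beside them is the mean with its SD. In AT-3 the share falls from 5.34% with empty vector to 3.91% with Y238A and 3.00% with wild type, and the subunit ratio is raised with wild type.

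In AT-3, wild-type MRTFA lowered nearly the whole family. Of the 82 members that passed the filter on low counts, 77 fell and 2 rose past an adjusted p of 0.05 (edgeR's quasi-likelihood F test, Benjamini-Hochberg adjustment over 17841 genes), where 32.2% of all genes tested fell and 36.4% rose. The median log2 fold change of the members was -0.66, with quartiles of -0.80 and -0.48, against a median of 0.07 over all genes. As a description of groups that do not overlap, the 3 wild-type libraries lay below the 3 controls for 77 members, against 35.0% of all genes. The member medians of single libraries relative to the control mean were -0.80, -0.62 and -0.56 on the log2 scale, again lowest in replicate 1, and leaving out 1 library at a time left between 76 and 79 members lower. The median log2 fold change was -0.58 without AT-3 wild-type replicate 1.

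Among small subunit members Rpsa, which also serves as a laminin receptor precursor, fell the most. Its level was 3133, 3150 and 3203 CPM with empty vector, 2593, 2630 and 2621 CPM with Y238A, and 1347, 1525 and 1510 CPM with wild type. The 3 groups were fully separated, and the step from Y238A to wild type was the larger one. The log2 fold change was -1.11 ± 0.0512 (SE) for wild type against empty vector (edgeR, adjusted p = 1.19e-13). Rps12, a small subunit protein that lies at the beak of the 40S subunit, behaved otherwise: it had 929, 982 and 960 CPM with empty vector, 509, 524 and 556 CPM with Y238A and 408, 472 and 509 CPM with wild type. Here most of the difference was present with Y238A, whose lowest library and the highest wild-type library were both at 509 CPM. Its log2 fold change with wild type was -1.05 ± 0.0651 (edgeR, adjusted p = 1.39e-11).

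Of the large subunit members Rpl23a and Rpl13a fell the most. Rpl23a, which sits at the polypeptide exit tunnel, had 217, 210 and 220 CPM with empty vector, 159, 171 and 166 CPM with Y238A and 95.5, 108 and 111 CPM with wild type. Its 3 groups did not overlap, and its log2 fold change with wild type was -1.04 ± 0.0522 (edgeR, adjusted p = 5.02e-13). Its exons overlap those of Tlcd1 on the other strand, so its reads are less certain, since the sources used here do not say whether strand was used in counting. Rpl13a, known from translational control of inflammatory transcripts outside the ribosome, went from a mean of 831 ± 6.64 CPM to 407 ± 44.5 CPM (SD, n = 3), a log2 fold change of -1.03 ± 0.0756 (edgeR, adjusted p = 3.7e-10). Those 4 genes were the members with a log2 fold change under -1.

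Part of the members of textbook role, chosen by name for what they do, are given next. The stalk proteins Rplp0, Rplp1 and Rplp2, which recruit elongation factors, had log2 fold changes of -0.76, -0.90 and -0.75. Rpl5 and Rpl11, which assemble with the 5S rRNA and can bind Mdm2, had -0.62 and -0.55. Around the exit tunnel Rpl4, Rpl35 and Rpl39 had -0.79, -0.59 and -0.81. In the small subunit Rps6, the substrate of the S6 kinases, had -0.48, while Rps19 and Rps14, both needed to process the small subunit rRNA precursor, had -0.87 and -0.74. All 11 were among the 77 members called lower (edgeR, Benjamini-Hochberg adjustment), where 32.2% of all genes were. They are only a part of the list of textbook roles, from which Rpl10 and Rpl24, given below, were not called lower.

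Only 5 members did not fall with wild type. Rpl10, which joins the large subunit late in its maturation, had 577, 591 and 598 CPM with empty vector and 608, 695 and 678 CPM with wild type. The wild-type libraries lay above the controls, and the log2 fold change was 0.17 ± 0.048 (edgeR, adjusted p = 0.00461). Rpl24 had 421, 421 and 414 CPM with empty vector against 384, 429 and 417 CPM, overlapping groups with a log2 fold change of -0.03 ± 0.0422 (edgeR, adjusted p = 0.547). Rpl36al and Rpl22l1, both second gene copies, had log2 fold changes of 0.01 ± 0.0575 and 0.04 ± 0.119 (edgeR, adjusted p = 0.92 and 0.803). Rpl3l was the other member called higher, from a level near 0 that is given with the gene copies.

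**Figure D2:**
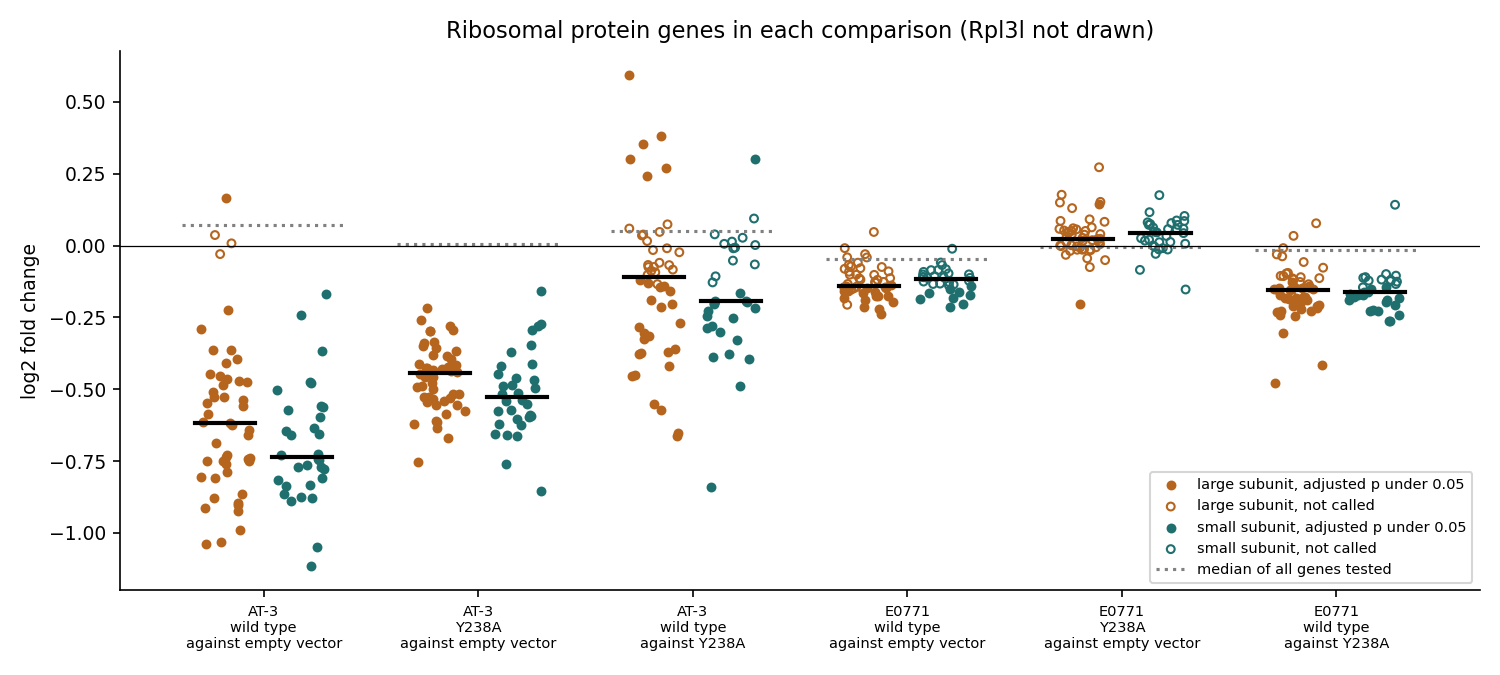
Log2 fold changes of 81 ribosomal protein genes (Rpl3l is left out, being off the scale) in the 6 comparisons within a line, large subunit in brown and small subunit in green. Filled points passed an adjusted p of 0.05, black bars are medians of the subunit and dotted grey lines the median of all genes tested. In AT-3 both constructs move the family below 0, by a median -0.66 for wild type and -0.49 for Y238A, while in E0771 the medians are -0.13 and 0.03.

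The fall was deeper for the small subunit. In AT-3 with wild type all 32 small subunit members fell, with a median log2 fold change of -0.74, and 45 of the 50 large subunit members tested fell, with a median of -0.62. Summed large subunit counts were 1.36 ± 0.0084 times the small subunit counts with empty vector, 1.37 ± 0.003 times with Y238A and 1.46 ± 0.0034 times with wild type (SD, n = 3). The wild-type libraries, at 1.46, 1.46 and 1.45, lay above the other 6, of which the highest was 1.37. In E0771 the ratio was 1.55 ± 0.0038, 1.54 ± 0.0032 and 1.53 ± 0.0045 for empty vector, wild type and Y238A, above the highest value in AT-3 in each group. These ratios rest on summed counts in which long and abundant transcripts weigh most, and they describe mRNA only.

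Because the members moved together, their promoters are shown beside the values. RefSeq (GRCm38.p6) gave 76 promoter windows for 64 of the 84 members, each from 250 bases before the annotated transcription start to 50 after it. The motif CCGGAAG, the core bound by ETS factors such as GABPA, was present on either strand in 35.5% of the member windows and in 8.86% of all 32851 windows of that length. TCTCGCGA, most of a longer palindromic element of CpG-rich promoters, was in 15.8% against 0.995%. A pyrimidine tract, here a C followed by at least 5 C or T on the transcribed strand and beginning within 10 bases of the start, was in 46.1% against 19.2%. The tract depends on an exact start, and the GENCODE gene starts differ from those used here for several members shown. For Rpsa the GENCODE gene begins at 120127689, ahead of the stretch printed below from 120127716. A window without a tract may thus have one at another start. The CArG box, to which SRF binds, was found in 1 member window, or 1.32%, against 1.63% of all windows, and TATAAA in 9.21% against 13.6%. None of these matches is evidence of binding.

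The windows below run from 50 bases before the start to 25 bases from the start onward and are shown 5′ to 3′ on the strand of the gene, with CCGGAAG, TCTCGCGA and the tract near the start in capitals. Rpsa, Rps12 and Rpl13a are among the members that fell the most with wild type in AT-3, Rpl26, Rpl38, Rpl28 and Rps6 carry the motifs, and Rpl10, Rpl24 and Rpl22l1 did not fall. Rps6 has a TCTCGCGA match that is cut by the left end of the printed stretch.
Rpsa (chr9:120127716-120127790, plus strand): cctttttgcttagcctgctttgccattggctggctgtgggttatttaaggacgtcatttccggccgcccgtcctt
Rps12 (chr10:23787185-23787259, minus strand): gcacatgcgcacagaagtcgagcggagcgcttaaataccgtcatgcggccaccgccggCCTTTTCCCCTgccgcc
Rpl13a (chr7:45128721-45128795, minus strand): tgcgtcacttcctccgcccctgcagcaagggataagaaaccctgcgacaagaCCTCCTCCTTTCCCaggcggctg
Rpl26 (chr11:68901516-68901590, plus strand): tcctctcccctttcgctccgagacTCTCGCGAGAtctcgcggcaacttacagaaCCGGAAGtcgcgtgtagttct
Rpl38 (chr11:114668530-114668604, plus strand): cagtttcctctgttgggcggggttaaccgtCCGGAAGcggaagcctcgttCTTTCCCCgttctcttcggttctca
Rpl28 (chr7:4792915-4792989, plus strand): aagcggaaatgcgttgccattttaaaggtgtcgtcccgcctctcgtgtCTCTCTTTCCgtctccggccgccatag
Rps6 (chr4:86857343-86857417, minus strand): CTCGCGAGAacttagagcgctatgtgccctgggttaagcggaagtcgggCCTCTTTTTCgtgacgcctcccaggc
Rpl10 (chrX:74270766-74270840, plus strand): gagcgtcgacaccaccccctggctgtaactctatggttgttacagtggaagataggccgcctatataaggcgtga
Rpl24 (chr16:55966225-55966299, plus strand): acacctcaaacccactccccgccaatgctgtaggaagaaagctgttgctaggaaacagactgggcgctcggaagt
Rpl22l1 (chr3:28805458-28805532, plus strand): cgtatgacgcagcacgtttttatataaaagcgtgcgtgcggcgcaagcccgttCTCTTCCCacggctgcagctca

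Medians with and without a motif lay close together for most motifs. The median log2 fold change with wild type in AT-3 was -0.62 over 25 members tested that had CCGGAAG in a window and -0.64 over 37 that did not. For the pyrimidine tract the medians were -0.63 with it (33 members) and -0.65 without it (29 members), and for TCTCGCGA they were -0.73 (11 members) and -0.62 (51 members). The widest gap was that of TATAAA, at -0.81 over 7 members with it and -0.62 over 55 without it. With Y238A the medians for TATAAA were in the other order, -0.46 with and -0.49 without, and the tract gave -0.49 with and -0.46 without. Rpl22l1, whose level was kept with wild type, has a tract within 10 bases of the annotated start used here. Rpsa, which fell the most, has none there. For both genes the GENCODE gene begins ahead of the printed stretch, at 28805436 for Rpl22l1 and 120127689 for Rpsa. Whether either mRNA starts with a tract was therefore not tested.

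Y238A also lowered the family in AT-3. Of 82 members 81 fell and 0 rose (edgeR, Benjamini-Hochberg adjustment), where 22.2% of all genes fell and 21.4% rose, and the exception was Rpl3l. At an unadjusted p under 0.05 none of the 82 rose either (0), and DESeq2 called 0 as higher. The median log2 fold change was -0.49 against 0.01 over all genes, with -0.53 over the small and -0.44 over the large subunit. For 81 members the 3 Y238A libraries lay below the 3 controls, against 28.6% of all genes. The falls were more even than with wild type, with quartiles of -0.57 and -0.40, and the member medians of the single libraries were -0.49, -0.48 and -0.48.

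The members that fell the most with Y238A were Rps12, Rps25 and Rpl36. Rps25, needed for initiation at some internal ribosome entry sites, had a log2 fold change of -0.76 ± 0.0584 (edgeR, adjusted p = 1.54e-09), and Rpl36 had -0.75 ± 0.0521 (edgeR, adjusted p = 3.62e-10). Rps27l and Rpl10 fell the least, by 0.16 ± 0.0554 and 0.22 ± 0.048 on the log2 scale (edgeR, adjusted p = 0.0254 and 0.000927). The comparison shares its 3 control libraries with that of wild type.

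Wild type was set against Y238A directly to see where the 2 forms differed in AT-3, although their construct levels differed too. Here 43 members were lower with wild type and 8 were higher (edgeR, adjusted p under 0.05), where 31.4% of all genes were lower and 34.8% higher, with a median of -0.14 against 0.05 over all genes. The groups were separated downward for 45 members, against 34.7% of all genes. The count moved with 1 library and with the scaling: 65 members were lower without AT-3 wild-type replicate 3, and 73 when libraries were scaled by their totals.

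The members furthest below Y238A with wild type were Rpsa, with -0.84 ± 0.0509 (edgeR, adjusted p = 9.01e-12), Rpl13a, with -0.66 ± 0.0752 (adjusted p = 2.18e-07 by edgeR), and Rpl23a, with -0.65 ± 0.052 (adjusted p = 6.71e-10 by edgeR). The largest difference in size was upward, in Rpl3l, a gene with few counts, at 2.91 ± 0.855 (edgeR, adjusted p = 0.00532). By contrast Rps6 (0.09 ± 0.0479), Rps27 (0.04 ± 0.0515) and Rpl36 (0.02 ± 0.0519) had intervals near 0, with edgeR adjusted p of 0.0914, 0.524 and 0.808, and under the scaling by totals Rps27 and Rpl36 turned to lower. Rpl10, at 502, 501 and 517 CPM with Y238A, was higher with wild type by 0.38 ± 0.0481 (edgeR, adjusted p = 6.08e-07). Rpl24 was also higher, by 0.35 ± 0.0422 (edgeR, adjusted p = 3.11e-07). Rpl18 and Rps29, named after their values were seen, were higher by 0.24 and 0.30 on the log2 scale.

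**Figure D3:**
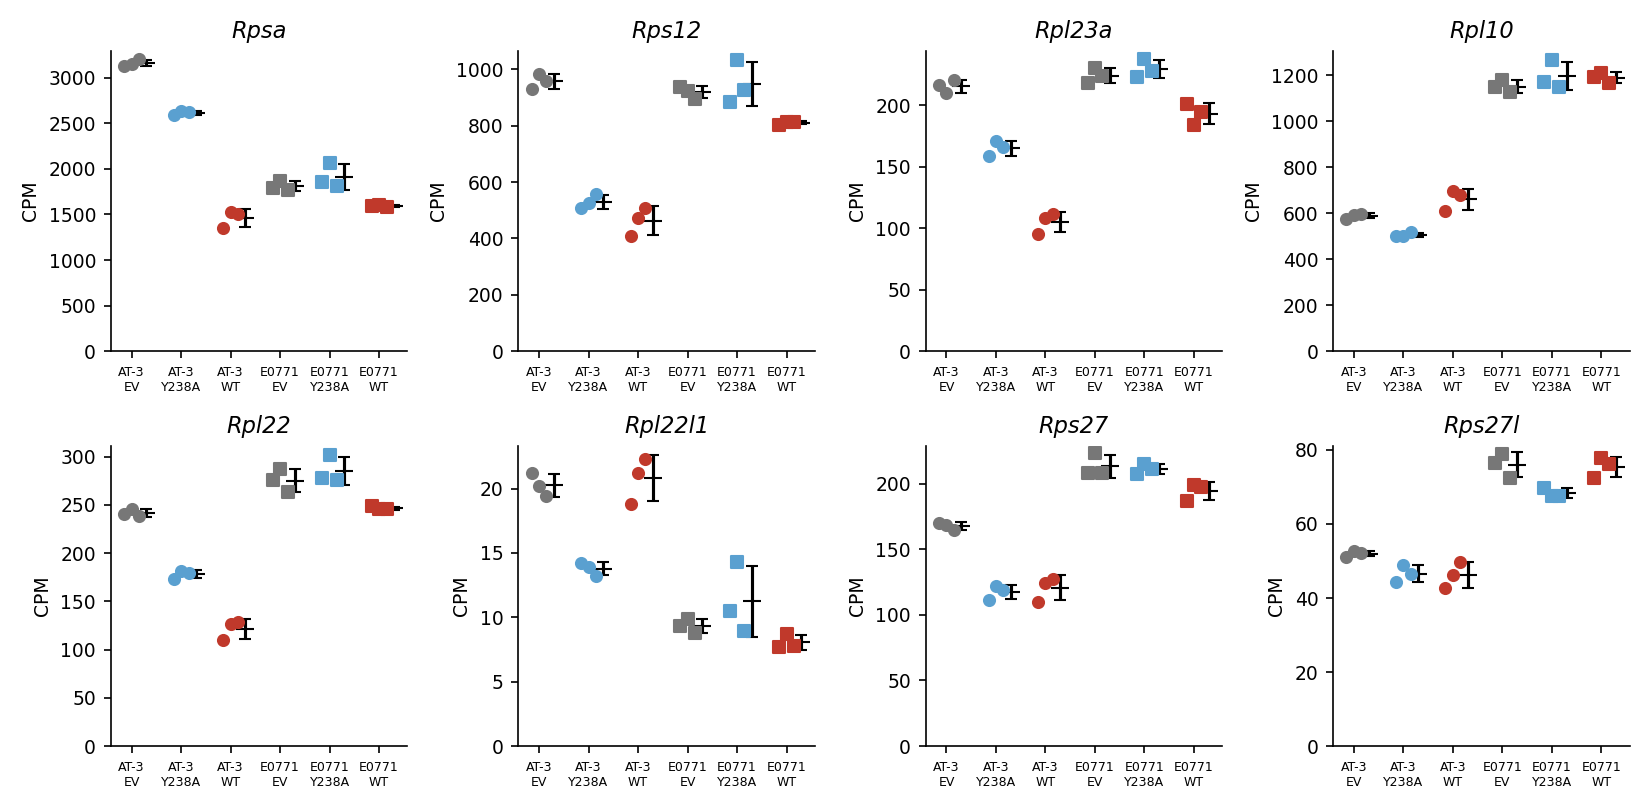
CPM of 8 ribosomal protein genes in every library, as 3 points per group with the mean and SD beside them (EV, empty vector; WT, wild type; circles AT-3, squares E0771). Rpsa, Rps12, Rpl23a and Rpl22 are lower with both constructs in AT-3, Rpl10 is lowest with Y238A, and the copy Rpl22l1 is kept with wild type while Rpl22 falls.

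Second gene copies were frequent among the members that were higher with wild type than with Y238A. Of the 7 copies in the family 5 were tested, and 4 of them were higher in that comparison in AT-3. Of the 77 other members 4 were higher, and of all genes 34.8%. Rpl22l1, a copy of Rpl22, had 21.2, 20.2 and 19.4 CPM with empty vector, 14.2, 13.9 and 13.2 CPM with Y238A and 18.8, 21.2 and 22.3 CPM with wild type. The wild-type and control libraries overlapped and the Y238A libraries lay below both. It was 0.59 ± 0.12 higher with wild type than with Y238A on the log2 scale (edgeR, adjusted p = 0.000211). Rpl22 in the same groups had 241 ± 4.08, 178 ± 4.32 and 122 ± 10.1 CPM (mean ± SD, n = 3 each). Rpl22 thus fell with each form, by 0.44 ± 0.052 with Y238A and 0.99 ± 0.0525 with wild type (edgeR, adjusted p = 7.05e-07 and 1.12e-12).

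Rpl36a and its copy Rpl36al differed in the same way. Rpl36a had log2 fold changes of -0.91 with wild type and -0.54 with Y238A, and Rpl36al had 0.01 and -0.29. These 2 genes have nearly the same coding sequence, so reads may have been shared between them. Under scaling by library totals Rpl36al was lower with wild type, at -0.15. Rpl7l1, which differs more from Rpl7, fell by 0.36 with wild type and by 0.63 with Y238A, while Rpl7 fell by 0.54 and 0.40. Rps27l, a target of p53, fell by 0.17 with wild type and 0.16 with Y238A, against 0.47 and 0.51 for Rps27.

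Rpl3l was close to absent without wild-type MRTFA in AT-3. Over the 3 libraries of a group it had 4 counts with empty vector, 21 with Y238A and 154 with wild type, or 0.649, 0.357 and 0.631 CPM in the wild-type libraries. The wild-type rate was 32.6 times that of the controls (95% exact interval 12.5 to 121, from the counts alone), and the fitted log2 fold change was 5.02 ± 1.04 (edgeR, adjusted p = 0.000246). Even numbers made up 61.9% to 64.6% of the nonzero counts of a library, so a fragment may count more than once and the interval may be too narrow. In E0771 it had 43, 16 and 18 counts with empty vector, wild type and Y238A and no called difference. Its partner Rpl3, which lies near the peptidyl transferase centre, had a log2 fold change of -0.74 ± 0.0483 with wild type in AT-3 (edgeR, adjusted p = 2.92e-11).

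Rpl10l and Rpl39l, copies known from testis, did not pass the filter. Rpl10l had 6 counts in AT-3 wild type, 6 in E0771 Y238A and 0 in the 4 other groups. Rpl39l had 0 counts in all 18 libraries, which allows up to 0.0113 CPM in the AT-3 empty-vector group, counting error only. Rps4l, the copy of Rps4x, was not analysed here.

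In E0771 the change was small. With wild type 28 of 82 members fell and 0 rose (edgeR, adjusted p under 0.05), against 13.3% of all genes that fell and 11.2% that rose. None (0) rose at an unadjusted p under 0.05 or by DESeq2. The median log2 fold change was -0.13 against -0.05 over all genes, a difference of -0.08. Of the 28, 19 were of the large and 9 of the small subunit. All 28 had also fallen with wild type in AT-3, but 77 of the 82 members fell there, so this overlap was nearly given. Values pointed downward for 81 of the 82, and for 10061 of all 17841 genes. The number called is not stable. It was 0 without the 4 libraries that held most transcripts typical of other groups, a setting that also took a library from each E0771 group. It was 3 without AT-3 wild-type replicate 2, 6 without AT-3 wild-type replicate 3 or with each line fitted alone, and 54 without AT-3 wild-type replicate 1.

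Rpl13a, with 754, 760 and 694 CPM with empty vector and 616, 631 and 625 CPM with wild type, fell by 0.24 ± 0.0748 on the log2 scale (edgeR, adjusted p = 0.0249). Rplp0 fell by 0.22 ± 0.0567 (edgeR, adjusted p = 0.00647), from 2494, 2581 and 2450 CPM to 2114, 2164 and 2175 CPM. Both genes had groups that did not overlap, with falls that were small in size. Rpsa went from 1791, 1871 and 1769 CPM to 1592, 1601 and 1586 CPM, a log2 fold change of -0.18 ± 0.0506 (edgeR, adjusted p = 0.0104). The highest values were those of Rpl10, Rpl17 and Rps27l, at 0.05, -0.01 and -0.01, none of them called.

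With Y238A in E0771 the family did not move as a whole. Only Rpl17 was higher, at 0.14 ± 0.0434 (edgeR, adjusted p = 0.0356), and only Rpl7l1 was lower, at -0.20 ± 0.0545 (edgeR, adjusted p = 0.0181), where 5.41% and 6.64% of all genes were. The median was 0.03. Against Y238A, wild type was lower for 49 members and higher for 0 (edgeR, adjusted p under 0.05), where 13.0% of all genes were lower and 12.7% higher, with a median of -0.16 against -0.02 over all genes. In this comparison 1 member was higher at an unadjusted p under 0.05 and 1 by DESeq2. E0771 Y238A replicate 2, the library that stood apart, had the highest share of ribosomal protein counts of its group, 6.58% against 5.99% and 6.09%. Without it 25 members were lower, and with each library left out in turn the count ran from 25 to 69. The part of E0771 Y238A replicate 2 in the count was not tested. Rpl22l1 had -0.48 ± 0.123 in this comparison (edgeR, adjusted p = 0.00605).

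**Figure D4:**
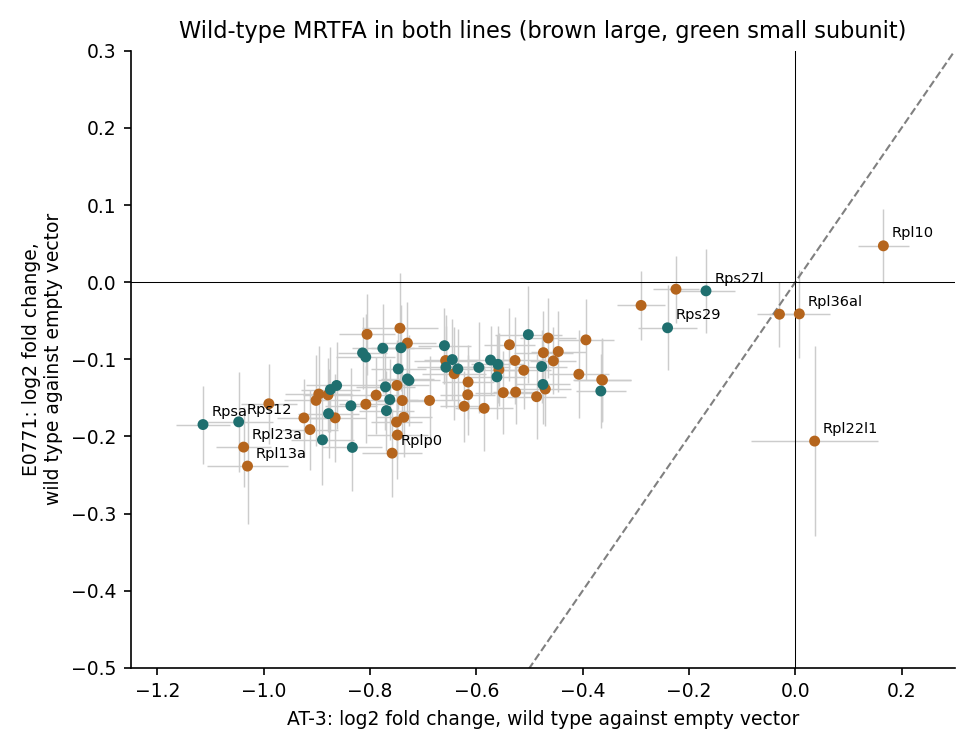
Log2 fold change of wild type against empty vector in AT-3 (horizontal) and E0771 (vertical) for 81 ribosomal protein genes, with standard errors in grey. The dashed line marks equal change. Most points lie to the left of it, and the largest falls in AT-3, such as Rpsa at -1.11, are -0.24 or smaller in size in E0771.

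The response to each form was then compared between the lines, by subtracting the change in AT-3 from that in E0771. With wild type this difference was above 0 for 75 members and below 0 for 1, Rpl3l (edgeR, adjusted p under 0.05), where 23.3% of all genes were above and 24.0% below. The median was 0.54. With Y238A it was above 0 for 80 members and below for 0, against 12.2% and 13.6% of all genes, with a median of 0.52. At an unadjusted p under 0.05 it was below 0 for 1 member, and by DESeq2 for 0. The largest differences with wild type were those of Rpsa (0.93 ± 0.0717), Rps12 (0.87 ± 0.0912) and Rpl22 (0.83 ± 0.0736), with edgeR adjusted p of 1.65e-09, 1.29e-07 and 1.14e-08. Those with Y238A were Rps12 (0.90 ± 0.0912), Rpl22l1 (0.83 ± 0.172) and Rpl36 (0.76 ± 0.0734), with edgeR adjusted p of 3.57e-07, 0.00107 and 1.77e-07.

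Not called for a line difference with wild type were members not called lower in AT-3, namely Rpl10 (-0.12 ± 0.0679), Rpl24 (-0.01 ± 0.0596), Rpl36al (-0.05 ± 0.0809) and Rpl22l1 (-0.24 ± 0.172). Rps27l and Rps29, which were called lower there, were not called either (edgeR, adjusted p between 0.0645 and 0.923 for these 6). A missing call does not show equal change, and Rpl24 was called at 0.20 and 0.18 without AT-3 wild-type replicate 2 and 3. Across the 81 members other than Rpl3l, the wild-type changes of the 2 lines, which share no library, had a Pearson r of 0.64 and a Spearman rho of 0.60. That is a description over genes that are not independent of each other. For Y238A the corresponding values were 0.15 and 0.21. With Rpl3l included, a gene near 0 counts in most groups, the Pearson r was -0.79 for each form and the Spearman rho 0.54 for wild type and 0.17 for Y238A, so the Pearson values rest on leaving out that gene.

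Without a construct single members differed between the lines, while the median of the family was near 0. Between empty-vector libraries 18 members (22.0%) were higher and 35 (42.7%) lower in AT-3 than in E0771 (edgeR, adjusted p under 0.05), where 36.8% of all genes were higher and 35.2% lower. Both directions together, members were thus not called more often than all genes. The median difference was -0.05, against 0.01 over all genes. Under a stricter filter on low counts the split was 28 higher and 32 lower. Apart from Rpl3l, 6 members were over 0.5 higher and 16 over 0.5 lower on the log2 scale. Rpl13 had 925, 915 and 931 CPM in AT-3 and 2207, 2260 and 2075 CPM in E0771, the largest difference downward at -1.24 ± 0.0509 (edgeR, adjusted p = 9.23e-15). Rpl10, Rpl36a and Rpl36al were lower in AT-3 too, by 0.97, 0.98 and 1.19. In the other direction Rpl39 had 137, 136 and 136 CPM in AT-3 and 60.6, 61.1 and 59.4 CPM in E0771, a difference of 1.17 ± 0.053 (edgeR, adjusted p = 4.35e-14). Rpl22l1 and Rpsa followed at 1.12 ± 0.122 and 0.80 ± 0.0509 (edgeR, adjusted p = 5.15e-08 and 9.94e-12). The groups of all these genes were fully separated.

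**Figure D5:**
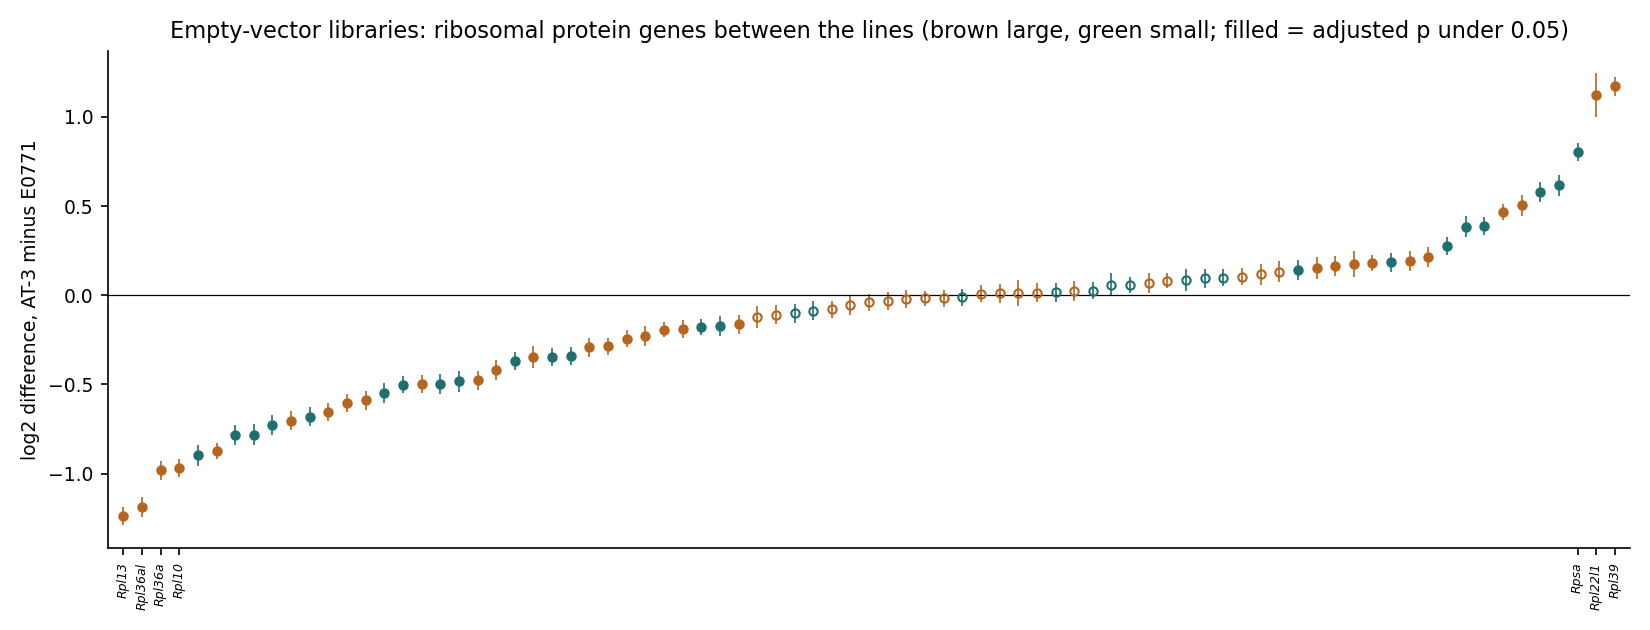
Difference between AT-3 and E0771 with empty vector for 81 ribosomal protein genes in order of size, as log2 difference with its SE, large subunit in brown and small subunit in green, filled where the adjusted p was under 0.05 and labelled for the genes with values in the text. The genes spread on both sides of 0, from Rpl13 at -1.24 to Rpl39 at 1.17.

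Ribosomal proteins named by other symbols followed the family in part. Fau, which encodes Rps30, fell with wild type in AT-3 by 0.50 ± 0.0485 on the log2 scale (edgeR, adjusted p = 1.55e-08). Rack1, a scaffold on the small subunit, had -0.05 ± 0.0392 with wild type (edgeR, adjusted p = 0.258) and fell by 0.36 ± 0.0392 with Y238A (edgeR, adjusted p = 2.6e-07). Rpl24 had the same order of calls, lower with Y238A and not with wild type.

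Other genes of the translation machinery were also often lower in AT-3. For comparison, 32.2% of all genes fell and 36.4% rose there with wild type, and 22.2% fell and 21.4% rose with Y238A. Of 23 translation factors and partners with TOP mRNAs, 19 fell and 1 rose with wild type, with a median log2 fold change of -0.44, and 19 fell and 0 rose with Y238A, with a median of -0.28. Hnrnpa1, an RNA-binding protein, had -1.26 ± 0.061 with wild type and Eif4b, a helper of the initiation helicase, -0.83 ± 0.0567 (edgeR, adjusted p = 2.74e-13 and 5.83e-11). Of 57 genes for ribosome assembly and RNA polymerase I, 41 fell and 6 rose with wild type (median -0.38), and 49 fell and 1 rose with Y238A (median -0.39). Of 10 tested host genes of small nucleolar RNAs 7 fell and 2 rose with wild type and 9 fell with Y238A, at medians of -0.40 and -0.74, the latter below the -0.49 of the ribosomal proteins. Over all genes tested the medians were 0.07 with wild type and 0.01 with Y238A.

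The mitochondrial ribosomal proteins, which belong to another ribosome, were divided. Of 78, 41 fell and 17 rose with wild type in AT-3 (median -0.17), and 31 fell and 12 rose with Y238A (median -0.12), against the same shares of all genes, 32.2% and 36.4% with wild type and 22.2% and 21.4% with Y238A. In E0771 with wild type 3 of the 23 TOP genes, 16 of the 57 assembly genes and 21 of the 78 mitochondrial genes fell, at medians of -0.09, -0.12 and -0.11, where 13.3% of all genes fell. The share of the TOP genes was thus near that of all genes. Between the empty-vector libraries 53 of the 57 assembly genes were lower in AT-3 than in E0771, with a median of -1.02, where 35.2% of all genes were lower, although the cytosolic ribosomal proteins were near equal at a median of -0.05.

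Among 29 regulators of ribosome production in the mTOR, Myc and p53 pathways no common direction was seen in AT-3. With wild type 11 rose and 12 fell, at a median of -0.05, and with Y238A 7 rose and 11 fell, at a median of -0.09. All genes rose and fell in shares of 36.4% and 32.2% with wild type and 21.4% and 22.2% with Y238A. Mtor, the kinase itself, rose by 0.89 ± 0.0578 with wild type (edgeR, adjusted p = 2.84e-11). Larp1, which binds TOP mRNAs, had -0.07 ± 0.0442 with wild type (edgeR, adjusted p = 0.192) and fell by 0.36 ± 0.0443 with Y238A (edgeR, adjusted p = 1.3e-06). Myc, an activator of ribosome production, and Trp53, which responds to unassembled ribosomal proteins through Mdm2, fell with wild type by 0.97 ± 0.172 and 1.19 ± 0.0733 (edgeR, adjusted p = 0.000217 and 2.39e-11). With Y238A they had log2 fold changes of -0.20 ± 0.17 and -0.36 ± 0.0722 (edgeR, adjusted p = 0.379 and 0.000396). The regulators with the smallest adjusted p with wild type were Rheb, Cdkn1a and Larp4, which rose, followed by Trp53, which fell as given above. The log2 fold changes of Rheb, Cdkn1a and Larp4 were 1.57 ± 0.0504, 3.09 ± 0.136 and 0.81 ± 0.0493 (edgeR, adjusted p = 4.37e-16, 3.75e-12 and 1.05e-11). With Y238A Cdkn1a rose by 2.10 ± 0.133, and Rheb and Larp4 were not called (edgeR, adjusted p = 1.78e-09, 0.299 and 0.649).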

How the data were processed

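The deposited table holds raw counts per gene for mRNA-seq in 18 libraries. The authors aligned reads to GRCm38 with STAR and counted them with featureCounts, per the submitters' processing notes. Versions, annotation release, strandedness and the treatment of reads that map to several places are not given in the sources used here, so genes with pseudogenes (60 of the 84 members have a named one) or overlapping exons (19 members) are less certain. In AT-3 with wild type the median log2 fold change was -0.71 over members with a named pseudogene and -0.55 over the 22 tested without one. Between 61.9% and 64.6% of nonzero counts were even, so both mates of a pair appear to have been counted.

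Library totals lay between 81265466 and 115260128 counts, and limits set from counts cover counting error only. Symbols came from GENCODE vM21 by Ensembl ID (32158 of 32286 entries). The test was that of edgeR 4.0.16 under R 4.3.3 (filterByExpr, minimum count 10 and minimum total 15; TMM; robust quasi-likelihood F test) in 1 fit of all 18 libraries with 6 group means and 12 residual degrees of freedom. Benjamini-Hochberg adjustment ran over 17841 genes, with a threshold of 0.05, and the fit was tested on simulated data. CPM are counts over TMM-scaled totals, and SE are those of the fitted log2 fold change.

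The members and gene lists were chosen with earlier results of these data known. Named members were the 3 highest and 3 lowest in each comparison, pairs of gene copies and members of textbook role, with fewer named where values repeat and some not reported here. Other lists were described by counts and medians. Same-numbered libraries of a line did not deviate together in the median (r 0.0202), so the model has no term for the replicate number. Still, 5 of 18 such pairs had an r over 0.1, up to 0.394, against 5 of 36 pairs of unlike number. Alternatives were DESeq2 1.42.0, its size factors, library totals, TMM factors without the members, no filter, a stricter filter, each line alone, a replicate block, each library left out, the members without gene copies, and all but 4 libraries that held transcripts typical of other groups.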

Additional observations from a re-analysis of the deposited data

Results flagged for a closer look

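The effect of each form on the ribosomal proteins differed between the lines in a direct test of the difference. With wild type the E0771 effect lay above the AT-3 effect for 75 members and below it for 1, and with Y238A it lay above for 80 (edgeR, adjusted p under 0.05 over all genes). Of all genes 23.3% lay above and 24.0% below with wild type, and 12.2% above and 13.6% below with Y238A. The construct was also lower in E0771, at 707 to 866 CPM for wild type against 4386 to 7082 CPM in AT-3, and its part in these differences was not tested.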

How the results depend on the processing

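The falls in AT-3 were stable: with wild type between 76 and 79 members and with Y238A between 80 and 81 were lower whichever library was left out, with medians from -0.83 to -0.58 and from -0.51 to -0.47. With wild type 1 to 2 members were higher, and with Y238A 0 to 1. For wild type against Y238A in AT-3 between 37 and 65 members were lower and 8 to 13 higher, at medians from -0.29 to -0.077. In E0771, with wild type against empty vector between 3 and 54 were lower, and the lowest and highest came without AT-3 wild-type replicates 2 and 1, which act through the scaling and the shared spread; 8 to 10 were lower without E0771 empty-vector replicate 1 or 2 or E0771 wild-type replicate 1 or 3. With Y238A against empty vector in E0771 0 to 4 were higher and 0 to 2 lower, and with wild type against Y238A 25 to 69 were lower (29 without E0771 wild-type replicate 1 or 3) and 0 to 1 higher. Between the lines the empty-vector median ran from -0.077 to 0.013, the median of the wild-type line difference from 0.46 to 0.77 with 1 to 2 members lower, and the Y238A line difference had 0 to 1 lower.

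Scaling by library totals moved the median of all genes for wild type against empty vector in AT-3 from 0.07 to -0.07. It gave 1 member higher and a member median of -0.81 there, 73 lower and -0.31 for wild type against Y238A in AT-3, 47 and 74 lower for E0771 wild type against empty vector and Y238A, and 5 higher for E0771 Y238A. The empty-vector median became -0.13 and that of the wild-type line difference 0.68. The stricter filter gave 1 higher in AT-3 with wild type. In E0771 it gave 4 lower with wild type (median -0.063), 6 higher with Y238A, and 1 higher for wild type against Y238A. Between empty vectors it gave 28 higher (median 0.030), and for the wild-type line difference 0 lower and a median of 0.61. Each line fitted alone gave 6 lower for E0771 wild type against empty vector and 1 higher against Y238A. DESeq2 gave 5 higher and 2 lower for E0771 Y238A and 1 higher for E0771 wild type against Y238A, as did its size factors (1). Without a filter 0 were higher with Y238A in E0771. Without the 4 libraries that held transcripts typical of other groups, and so with fewer libraries in each E0771 group, 0 were lower with wild type in E0771, and 0 were higher and 0 lower with Y238A.

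Numbers did not pair the libraries in the median, although some same-numbered pairs of a line deviated together. With a replicate block 37 members were lower with wild type in E0771 in place of 28, and 2 in place of 1 higher with Y238A; no other count moved by over 1.5 times. Without the gene copies 1 member was higher in AT-3 with wild type, 4 were higher with wild type than Y238A, and 0 were lower with Y238A in E0771 or in the wild-type line difference. The shares were then 5.31% (empty vector) and 3.88% (Y238A) in AT-3 and 5.34% in E0771 wild type. The log2 ratios of large to small subunit were 0.43, 0.53 and 0.44 in AT-3 and 0.62, 0.61 and 0.60 in E0771 for empty vector, wild type and Y238A.

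Single members turned in 18 cases. With library totals Rpl36al with wild type in AT-3 was -0.15, and against Y238A Rpl31 was -0.14, Rps27 -0.13, Rpl34 -0.12, Rps20 -0.16, Rpl9 -0.13, Rps9 -0.17, Rpl29 -0.11, Rps23 -0.14, Rps10 -0.17, Rpl36 -0.16 and Rpl17 -0.10. With 1 library left out at a time, Rpl36al ran from -0.17 (without AT-3 wild-type replicate 3) to 0.072 (without AT-3 wild-type replicate 1). Between the same settings Rps9, Rps10 and Rpl36 ran, against Y238A, from -0.13 to 0.052, from -0.16 to 0.079 and from -0.14 to 0.082. The wild-type line difference of Rpl24 ran from -0.062 without AT-3 wild-type replicate 1 to 0.20 without replicate 2, and was 0.18 without replicate 3. The cause was not tested. At this depth the gene copies near 0 counts set the limit, and with 3 libraries per group the E0771 falls with wild type, with a median of -0.13, were called only in part.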
